A study of Mus musculus with 6 samples.

Results

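The pancreatic digestive enzyme antigens are 10 genes that the acinar cells of the pancreas secrete, and they were followed here in medullary thymic epithelial cells (mTECs). They are the proteases Ctrb1, Ctrl, Prss2, Cpa1 and Cpb1, the lipase genes Pnlip, Pnliprp1 and Pnliprp2, the lipase cofactor Clps and the granule membrane protein Gp2. Members were taken as the probes of the authors' matrix that carry one of these symbols. This gave 11 of 41174 probes, and all 10 genes were among the 21410 genes or unnamed probes tested.

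The cells were sorted from the thymus of mice 30 days old that were MBD1 KO or MBD1 WT, with 3 arrays for each genotype. The sort kept DAPI-, CD11c-, CD45-, Ly51-, EPCAM+ and Class II+ cells, and their RNA was amplified by whole transcriptome amplification before Cy3 labelling and hybridisation to Agilent mouse arrays. The design text counts 4 biological replicates per genotype, of which the authors removed 1 each in quality control; the labels name neither the strain nor the deleted part of Mbd1, nor whether a replicate was 1 mouse or a pool. The values below are the authors' log2 values per probe in columns KO 1 to KO 3 and WT 1 to WT 3.

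Digestive enzymes are made in bulk by pancreatic acinar cells, which store them as inactive precursors in zymogen granules until they reach the gut. Mature mTECs transcribe a wide range of such tissue-restricted genes, many of them through the autoimmune regulator Aire, and show the proteins to developing T cells so that self-reactive cells are removed or diverted. Mbd1 binds methylated CpG sites in DNA and is known as a partner of Aire in mTECs. In bulk RNA, fewer cells making an antigen and less RNA per cell cannot be told apart.

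The column names and the titles of the scanner files do not match, which bears on every direction below. Ranks over probes in 5 of the 6 columns were identical to those of a scanner array. For 0 of these 5 did column name and array title agree in genotype and number, and for 4 the title gave the other genotype. Mbd1 was 5.64, 5.61 and 5.60 in the KO columns, close to the background level of 5.50 to 5.64 there, and 8.83, 8.60 and 9.00 in the WT columns (difference -3.19, SE 0.19, limma adjusted p = 5.5e-05). KO 1 and KO 3 were at or under that level, so the size of the difference is uncertain. With slide as a block the adjusted p was 0.075, and an Mbd1 probe well above background on all 6 arrays read -0.98 (limma adjusted p = 0.118). Under the titles Mbd1 read 1.59, higher in the arrays titled KO, so genotype here means the name of the column. All 10 mTEC markers listed, among them Epcam, Aire and Krt5, were above background in all 6 columns. So were all 10 T cell and all 7 B cell markers. Only genes that passed the detection filter were counted, so these counts cannot tell the cell types apart. Of 10 T cell markers, 10 were higher in the KO columns (median difference 0.58, 0 passing). At an unadjusted p under 0.05 were 5 of them, beside 4.3% of all genes, and 6 did not overlap between the groups, beside 8.4% of all genes, with a summed level of 12.47 to 12.72 in KO and 11.66 to 12.05 in WT columns on the log2 scale. Of 8 dendritic cell and macrophage markers, 6 were higher and 2 lower (median 0.41, 0 passing). An unadjusted p under 0.05 in limma was seen for 3 of the 8, and 4 did not overlap, all higher in the KO columns. Of 6 plasma cell markers 3 were higher and 3 lower, and Jchain, the joining chain of secreted antibodies, read 1.74 (limma adjusted p = 0.362, other probe 1.65) and Mzb1 0.56, both without overlap and named after their values were seen. The part of these cells in the values below was not tested.

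The sequence just upstream of these genes is shown because Mbd1 reads CpG methylation and because acinar transcription depends on short promoter motifs. Windows of 250 bases before the transcript start were taken from RefSeq (GRCm38.p6), which matched 9 of the 10 genes; Clps was not matched. The windows of Ctrb1 and Prss2 hold the fewest CpG sites, 1 each. Those of Pnlip and Pnliprp2 hold the most, 7 and 8, and that of Cpa1 holds 2. The Ctrb1 window lies at chr8:111691011-111691260 on the minus strand, Prss2 at chr6:41521526-41521775 on the plus strand and Cpa1 at chr6:30638968-30639217 on the plus strand. Pnlip lies at chr19:58670115-58670364 and Pnliprp2 at chr19:58759473-58759722, both on the plus strand. Each is printed 5′ to 3′ on the gene's strand, and capitals mark CG and the TATA box TATAAA.
Ctrb1: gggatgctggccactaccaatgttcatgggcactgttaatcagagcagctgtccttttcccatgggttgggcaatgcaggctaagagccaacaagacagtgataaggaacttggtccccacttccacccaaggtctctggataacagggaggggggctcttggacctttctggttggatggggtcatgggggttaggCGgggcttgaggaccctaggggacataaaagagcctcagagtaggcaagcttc
Prss2: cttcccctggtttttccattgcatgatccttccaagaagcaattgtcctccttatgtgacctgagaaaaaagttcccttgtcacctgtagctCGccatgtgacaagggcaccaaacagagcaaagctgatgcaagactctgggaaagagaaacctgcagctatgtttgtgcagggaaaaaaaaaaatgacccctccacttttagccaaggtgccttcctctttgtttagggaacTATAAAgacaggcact
Cpa1: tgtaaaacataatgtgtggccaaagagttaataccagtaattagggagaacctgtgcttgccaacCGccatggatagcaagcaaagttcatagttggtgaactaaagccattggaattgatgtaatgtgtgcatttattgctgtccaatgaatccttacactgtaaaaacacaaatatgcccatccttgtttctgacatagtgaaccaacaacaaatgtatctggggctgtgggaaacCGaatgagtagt
Pnlip: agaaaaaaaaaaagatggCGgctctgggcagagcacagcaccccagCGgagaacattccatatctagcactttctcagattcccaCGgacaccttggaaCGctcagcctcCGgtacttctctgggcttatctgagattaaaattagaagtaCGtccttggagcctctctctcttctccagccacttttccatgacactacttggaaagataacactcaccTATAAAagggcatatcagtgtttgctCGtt
Pnliprp2: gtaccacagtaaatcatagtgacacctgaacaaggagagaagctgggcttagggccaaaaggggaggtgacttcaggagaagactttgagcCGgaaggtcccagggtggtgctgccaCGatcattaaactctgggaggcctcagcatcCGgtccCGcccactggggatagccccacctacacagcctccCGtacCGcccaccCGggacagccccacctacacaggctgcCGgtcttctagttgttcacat

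The 9 windows had a median of 2 CpG sites, against 6 over 32851 windows of the same length, with Pnlip and Pnliprp2 above that median. The other counts were 2 for Ctrl, Cpb1 and Pnliprp1 and 4 for Gp2. The E-box CANNTG, which reads the same on both strands and is bound by basic helix-loop-helix factors such as Ptf1a, occurred in 8 of the 9 windows and in 66.2% of all windows. TTTCCC, searched on both strands as the TC-box that accompanies the E-box in sites of the acinar PTF1 complex, occurred in 3 of the 9 (Ctrb1, Prss2 and Cpa1) and in 21.9% of all windows. TATAAA, searched on the gene's strand only, occurred in 3 of the 9 (Pnlip, Prss2 and Gp2) and in 7.6% of all windows. No motif match overlapped a CpG site or another motif. These are matches of letters, and methylation was not measured in these arrays.

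**Figure D1:**
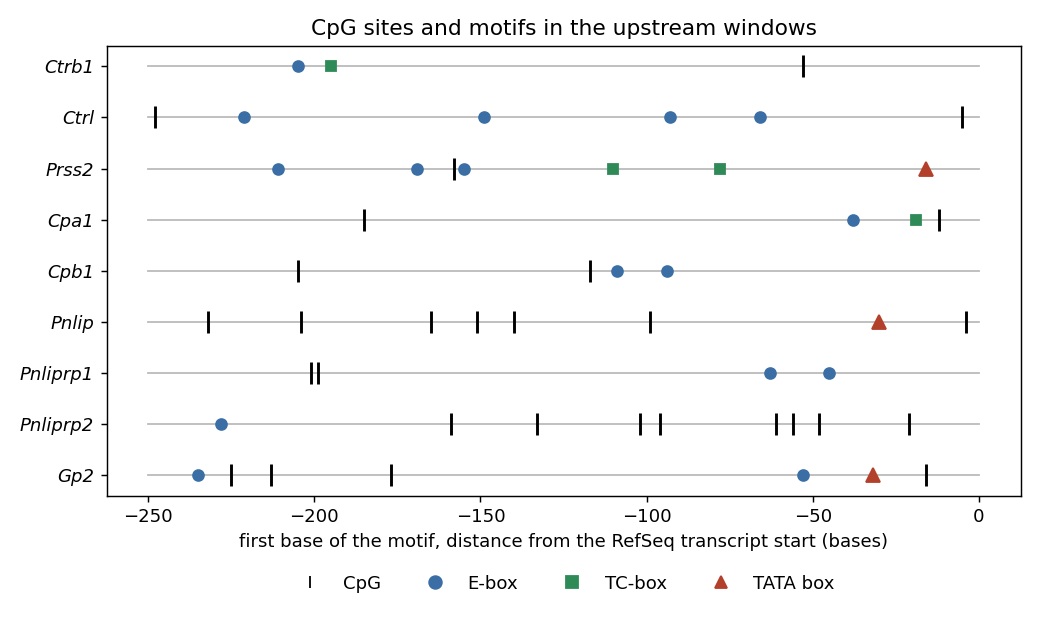
Position of CpG sites (black bars), E-boxes (circles), TC-boxes (squares) and TATA boxes (triangles) in the 250 bases upstream of 9 genes, as distance in bases from the RefSeq transcript start. Pnlip and Pnliprp2 carry 7 and 8 CpG sites, while Ctrb1 and Prss2 carry 1 each.

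No digestive enzyme gene passed the test between the genotypes, and the 10 had no shared direction. Of the 10 genes, 5 read higher and 5 lower in the KO columns, with a median difference of 0.01 on the log2 scale, against -0.00 over all genes tested. The count passing at an adjusted p of 0.05 was 0 of 10 (limma with Benjamini-Hochberg adjustment over all genes), where 0.168% of all genes passed (36, of which 33 higher and 3 lower). At an unadjusted p of 0.05 the count was again 0 of 10, beside 4.3% of all genes. In 0 of the 10 genes did the KO and WT columns separate without overlap, beside 8.4% of all genes. The authors' deposited table lists an FDR of 0.9995 for each of the 10. The smallest p that an exact permutation of 3 against 3 columns allows is 0.1, so the model fitted across all genes was used.

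**Figure D2:**
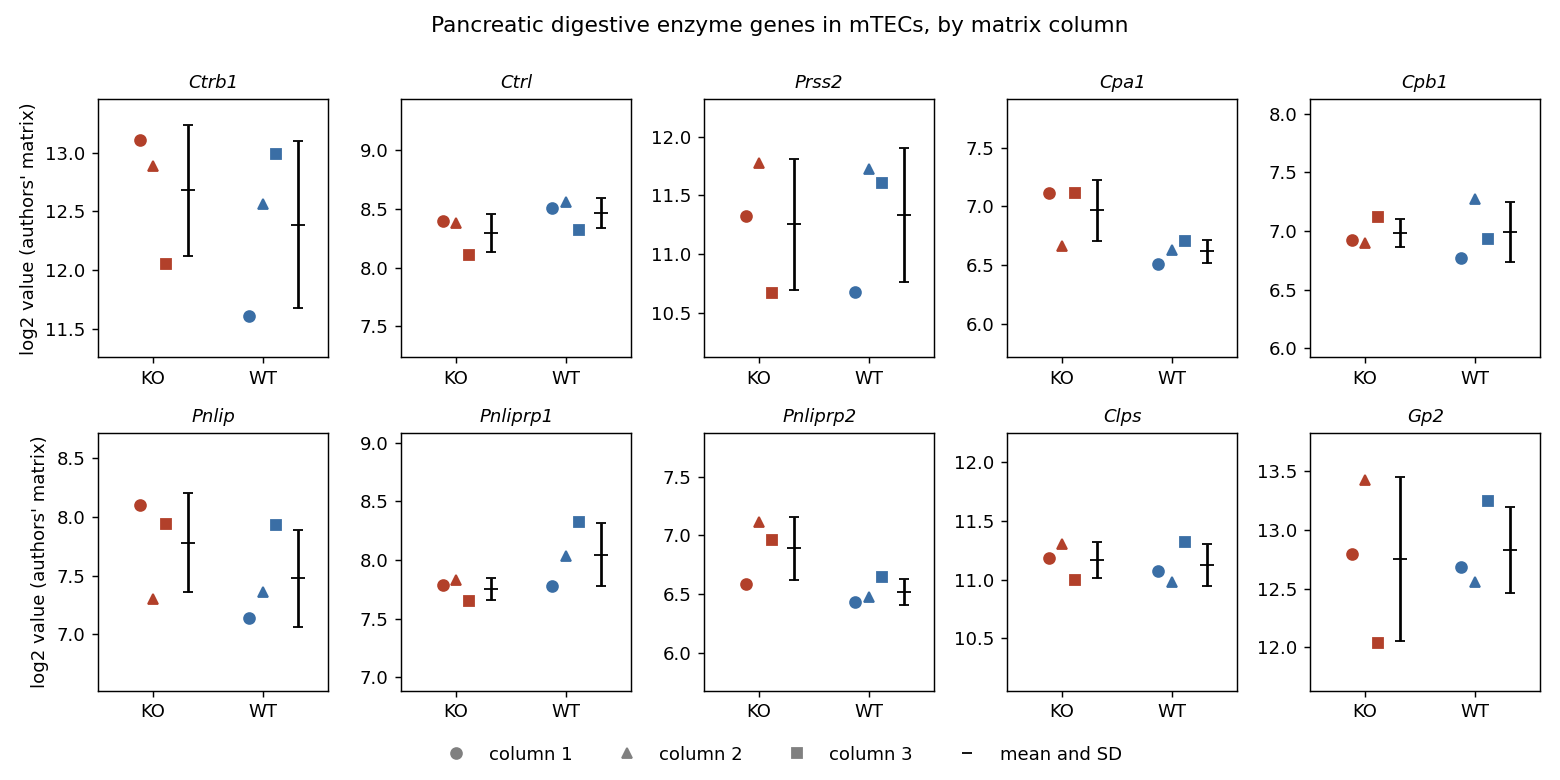
Authors' log2 value (vertical axis, the same span of log2 units in every panel) of the 10 genes in the KO columns (red, left) and the WT columns (blue, right), with the mean and SD of 3 columns in black. The groups overlap in every panel, and the columns of Ctrb1, Prss2 and Gp2 lie the farthest apart.

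Of the serine proteases, Ctrb1 encodes chymotrypsinogen B, the precursor that trypsin turns into chymotrypsin. Ctrb1 (probe A_51_P205761, chromosome 8) had 13.11, 12.88 and 12.05 in the KO columns, against 11.61, 12.56 and 12.99 in the WT columns. The highest value, in KO 1, was 2.83-fold the lowest, in WT 1, and each group held high and low columns. The difference of 0.29 (SE 0.36, 95% interval -0.50 to 1.09) was less than the spread between columns, which had a within-genotype SD of 0.64. Without WT 1 it read -0.10.

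Prss2 encodes an anionic trypsinogen, the precursor of trypsin, which in turn activates the other proenzymes. Prss2 (A_51_P418901, chromosome 6) had 11.32, 11.77 and 10.67 in the KO columns, against 10.68, 11.72 and 11.60 in the WT columns. KO 3 and WT 1 were both low, about 1 log2 unit under the highest column of their own genotype, and the difference was -0.08 (SE 0.33, interval -0.81 to 0.65). It turned positive without KO 3 (0.21), without WT 2 (0.12) or without WT 3 (0.05). Trypsinogen genes are close copies of each other, so this probe may also read its relatives.

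Ctrl encodes a chymotrypsin-like protease and was among the steadiest of the 10. Ctrl (A_51_P177491, chromosome 8) had 8.39, 8.38 and 8.11 in the KO columns, against 8.51, 8.56 and 8.32 in the WT columns. KO 1 and KO 2 lay above WT 3, so the groups overlapped, and the difference was -0.17 (SE 0.19, interval -0.59 to 0.25). Its sign was negative whichever column was left out (-0.24 to -0.08).

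The metalloproteases Cpa1 and Cpb1 encode procarboxypeptidases A1 and B1, whose active forms trim amino acids from the carboxyl end of peptides. Cpa1 (A_52_P161237, chromosome 6) had 7.12, 6.67 and 7.12 in the KO columns, against 6.51, 6.63 and 6.71 in the WT columns. A single pair of columns kept the groups from separating, since KO 2 lay just under WT 3. The difference was 0.35 (SE 0.20, interval -0.09 to 0.79, unadjusted p = 0.111 and adjusted p = 0.999 in limma), and it stayed between 0.27 and 0.50 when a column was left out. Cpb1 (A_51_P391934, chromosome 3) had 6.93, 6.90 and 7.12 in the KO columns, against 6.77, 7.28 and 6.93 in the WT columns. The WT columns held both the lowest and the highest value of Cpb1, and the difference was -0.01 (SE 0.20, interval -0.46 to 0.43).

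Of the lipase genes, Pnlip encodes pancreatic triglyceride lipase, the main enzyme of fat digestion. Pnlip (A_52_P584279, chromosome 19) had 8.10, 7.30 and 7.94 in the KO columns, against 7.14, 7.36 and 7.93 in the WT columns. KO 2 lay with the low WT columns and WT 3 with the high KO columns, and the difference of 0.31 (SE 0.27, interval -0.29 to 0.90) was less than the within-genotype SD of 0.42. Its other probe, A_51_P520552, had 6.66, 6.22 and 6.65 in the KO columns and 5.60, 6.58 and 6.51 in the WT columns. There WT 1 was at background, and the difference was 0.28.

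Pnliprp1 and Pnliprp2 encode lipase-related proteins, of which the product of Pnliprp2 also splits galactolipids and phospholipids. Pnliprp1 (A_51_P136781, chromosome 19) had 7.79, 7.83 and 7.65 in the KO columns, against 7.78, 8.03 and 8.32 in the WT columns. The difference was -0.29 (SE 0.20, interval -0.74 to 0.15), with WT 1 inside the range of the KO columns. Pnliprp2 (A_51_P314669, chromosome 19) had 6.59, 7.12 and 6.96 in the KO columns, against 6.43, 6.47 and 6.65 in the WT columns. Only KO 1 lay within the WT range, and the difference of 0.37 was the largest of the 10 (SE 0.20, interval -0.08 to 0.82, unadjusted p = 0.097 and adjusted p = 0.999 in limma). It kept its sign whichever column was left out (0.26 to 0.52). The 3 lipase genes lie near each other on chromosome 19, and their differences had unlike signs.

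Clps encodes colipase, which anchors the lipase to bile-coated fat droplets. Clps (A_51_P164459, chromosome 17) had 11.19, 11.30 and 11.00 in the KO columns, against 11.07, 10.98 and 11.32 in the WT columns. The values of both groups covered almost the same range, and the difference was 0.04 (SE 0.19, interval -0.39 to 0.47).

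Gp2 encodes the main glycoprotein of the zymogen granule membrane and is also known on the M cells of the gut. Gp2 (A_51_P268391, chromosome 7) had 12.79, 13.43 and 12.03 in the KO columns, against 12.68, 12.56 and 13.25 in the WT columns. The KO columns held both the highest and the lowest value, a range of 1.39, and the difference was -0.08 (SE 0.33, interval -0.80 to 0.64). It read 0.28 without KO 3 and 0.13 without WT 3.

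**Figure D3:**
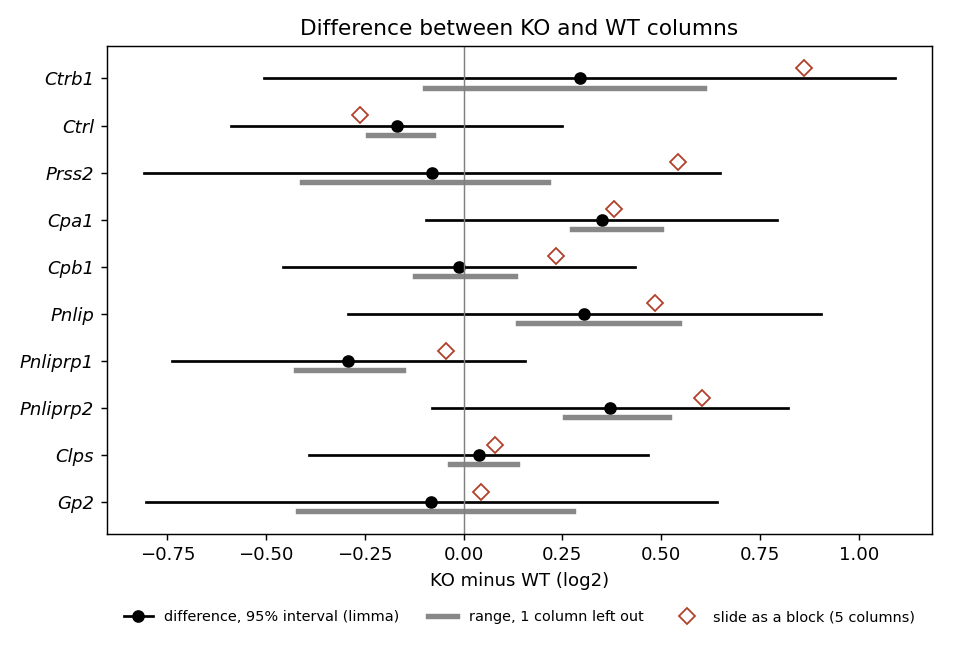
Difference of KO minus WT columns (log2, horizontal axis) for each gene with its 95% interval from limma in black, the range over fits that leave out 1 column in grey, and the value with slide as a block over 5 columns as red diamonds. Every interval crosses 0, and the widest, that of Ctrb1, runs from -0.50 to 1.09.

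Over the 10 genes, grouped by column name, the intervals ran from -0.81, the lower bound of Prss2, to 1.09, the upper bound of Ctrb1. For every gene but Ctrb1 a 2-fold difference (1 log2 unit) lay outside the interval in either direction. For Ctrb1 a 2-fold higher level in the KO columns lay within it. These intervals take the values as read and do not account for slide. At their lowest, Cpa1 and Pnliprp2 were only 0.84 and 0.76 log2 units above background, and Cpb1 came next. Whether values so near background would show a 2-fold difference in full was not tested. For Gp2, all 3 WT values came from spots marked as outliers, so its interval is uncertain too. Under the scanner titles the intervals were wider. They held a 2-fold difference for Cpb1 (up to 1.14), Ctrl (up to 1.09), Ctrb1 (up to 1.84), Pnlip (up to 1.21), Prss2 (-1.39 to 1.26) and Gp2 (down to -3.06). Arrays titled WT were all on slide 1 and those titled KO all on slide 2. Title and slide thus cannot be told apart in these intervals. The fit under the titles also used another measure, the processed intensity, with marked spots left out. That left 1 array titled KO against 2 titled WT for Gp2, 2 against 2 for Ctrb1 and 2 against 3 for Prss2. The part of each in the width was not tested.

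Slide could be set for the 5 columns that equalled an array, and within slide 1 KO 2 and KO 3 could be compared with WT 1. Slide 2 held WT columns only. With slide as a block, Ctrb1 read 0.86, Pnliprp2 0.60, Prss2 0.54, Pnlip 0.48, Cpa1 0.38, Cpb1 0.23, Clps 0.08 and Gp2 0.04, while Ctrl read -0.26 and Pnliprp1 -0.04. Cpb1, Prss2 and Gp2 changed sign in that fit. Its median was 0.31, it rests on WT 1 alone for the WT side, and 0 of the 10 passed.

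WT 1 was low for most of the digestive enzyme genes. It lay below the gene's own mean over the 6 columns in 9 of 10 genes, all but Ctrl. Averaged over the 10 genes after centring each on its mean, the columns read 0.12, 0.14 and -0.15 in KO and -0.30, 0.00 and 0.19 in WT on the log2 scale. KO 3 and WT 1 were thus the lowest columns, 1 of each genotype. The array that WT 1 equals had the smallest share of probes well above background of the 6 arrays (73.3%, others up to 80.8%) and the lowest median processed intensity (70.0, others 89.9 to 136.4); its part in these low values was not tested. Without WT 1 the median difference of the 10 genes was -0.11, and without KO 3 it was 0.22.

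The genes differed in how much they varied among columns of 1 genotype. The within-genotype SD of Ctrb1 exceeded that of 97.9% of all genes tested, that of Prss2 95.9%, that of Gp2 95.7% and that of Pnlip 84.9%. In contrast, Ctrl exceeded 12.3% of all genes, Clps 17.8% and Cpa1 27.3%. Ctrb1, Prss2 and Gp2 ranged at least 2-fold over the 6 columns (3 of 10), as did 21.3% of all genes. The scanner marked spots of these same 3 genes as outliers. They were the Ctrb1 spot behind KO 2, the Prss2 spot behind WT 3 and the Gp2 spots behind all 3 WT columns. KO 1 equalled no array, so its spots could not be checked. Over all probes with a single spot, 4.6% were marked on any array, and the part of these spots in the spread was not tested. With marked spots left out, an alternative added after seeing the data, Ctrb1 read 0.19 and Prss2 0.05, and Gp2 had no WT value.

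**Figure D4:**
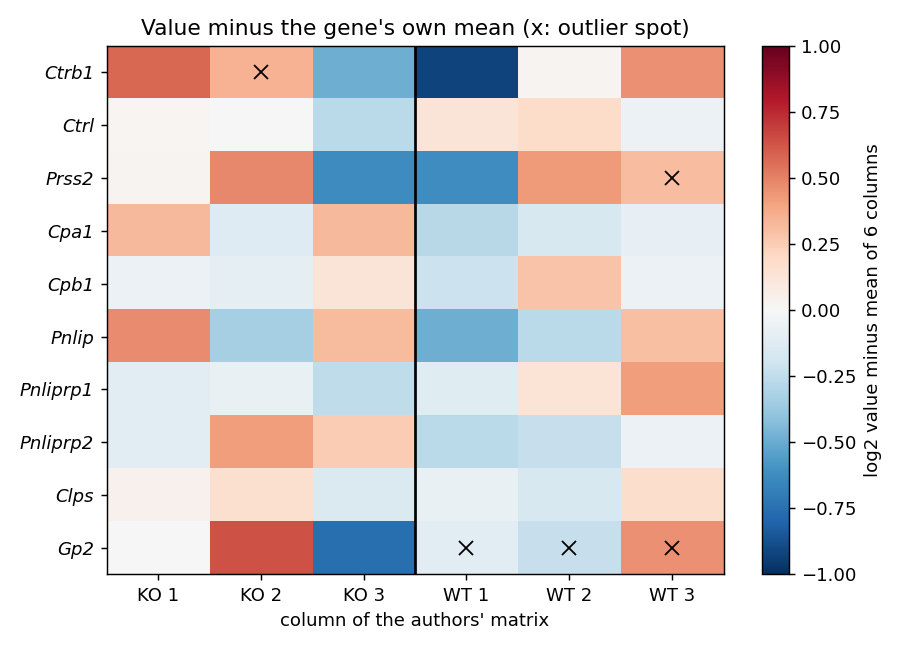
Each gene's log2 value minus its own mean over the 6 columns (red higher, blue lower), with KO columns at the left, WT columns at the right, and crosses where the value comes from a spot marked as an outlier. Spots behind KO 1 could not be checked, because it equalled no array. KO 3 and WT 1 are blue for Ctrb1 and Prss2, and Gp2 is bluest in KO 3.

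Across the 6 columns some of the genes varied together, given here as a description since the columns share genotype and normalization. Clps and Gp2 had a Pearson correlation of 0.90, Cpa1 and Pnlip 0.85, Ctrb1 and Prss2 0.81, and Prss2 and Gp2 0.70. The trypsinogen and chymotrypsinogen genes thus shared their low columns, KO 3 and WT 1. Cpa1 and Ctrl had the lowest, -0.69. Of the 45 pairs 29 were positive and 16 negative, with a median of 0.18. The genes whose pattern was most like the mean of the 10 were Xrn1, Gpr135, Pgrmc2, Tfdp1 and Dysf (Pearson correlation of 0.992 to 0.996 over 6 columns). Among 21400 other genes, 406 (1.9%) had a correlation of at least 0.9.

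The differences of other secretory genes of the acinar cell ran from -0.58 to 0.92 on the log2 scale. Of 30 genes listed, 22 were found on the array by symbol and 21 were tested. Of these 21, 10 read higher and 11 lower in the KO columns with a median of -0.04, and 0 passed. An unadjusted p under 0.05 in limma was seen for 6 (4.3% of all genes), and the same 6 did not overlap between the groups (8.4% of all genes). Sycn, which encodes the granule protein syncollin, had 8.97, 8.69 and 9.50 in the KO columns, against 7.65, 8.68 and 8.07 in the WT columns. KO 2 and WT 2 were nearly level, and the difference was 0.92 (SE 0.29, limma adjusted p = 0.690). Pla2g1b, the secreted pancreatic phospholipase A2, had 12.49, 13.06 and 12.14 in the KO columns, against 11.62, 11.76 and 11.99 in the WT columns. All KO columns lay above all WT columns, by a difference of 0.77 (SE 0.25, limma adjusted p = 0.717). Neither passed.

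The other 4 genes read lower. Spink3, the pancreatic trypsin inhibitor of the mouse, had 13.51, 13.21 and 13.93 in the KO columns, against 14.04, 14.20 and 14.17 in the WT columns (difference -0.58, SE 0.22). Amy1, an amylase that digests starch and is best known from saliva, averaged 9.55 ± 0.33 in KO and 10.09 ± 0.11 in WT columns (SD, n = 3 each; difference -0.54). Cel, the bile salt-stimulated lipase, averaged 7.89 ± 0.44 in KO and 8.45 ± 0.07 in WT columns (difference -0.56), and Dnase1, a secreted nuclease picked after its values were seen, read -0.45. For these 4 the adjusted p was 0.941 to 0.999 in limma. The other acinar secretory genes thus read in both directions in these columns, and 0 of them passed.

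The transcription factors that build acinar cells were above background in all 6 columns, 10 of 10. The markers of T cells (10 of 10) and B cells (7 of 7) were too. All were counted after the detection filter, so this count says little about acinar factors. Of the 10 factors, 5 read higher and 5 lower with a median of 0.00. Of these factors 0 passed, 0 had an unadjusted p under 0.05 in limma and 0 separated without overlap. Ptf1a, the DNA-binding part of the acinar PTF1 complex, had 6.55, 6.92 and 6.50 in the KO columns, against 6.59, 6.79 and 6.85 in the WT columns (difference -0.09, SE 0.20). Rbpjl, its acinar partner, had 7.97, 7.02 and 7.24 in the KO columns, against 7.48, 7.23 and 7.25 in the WT columns (difference 0.09, SE 0.25). For both, the WT values lay within the range of the KO values. Foxa2 read -0.27, Xbp1 -0.21, Gata4 -0.19 (other probe -0.54) and Nr5a2 0.17. Of the drivers of antigen expression in mTECs, Aire read 0.30 (SE 0.26) and Fezf2 -0.02 (SE 0.28), and neither passed.

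**Figure D5:**
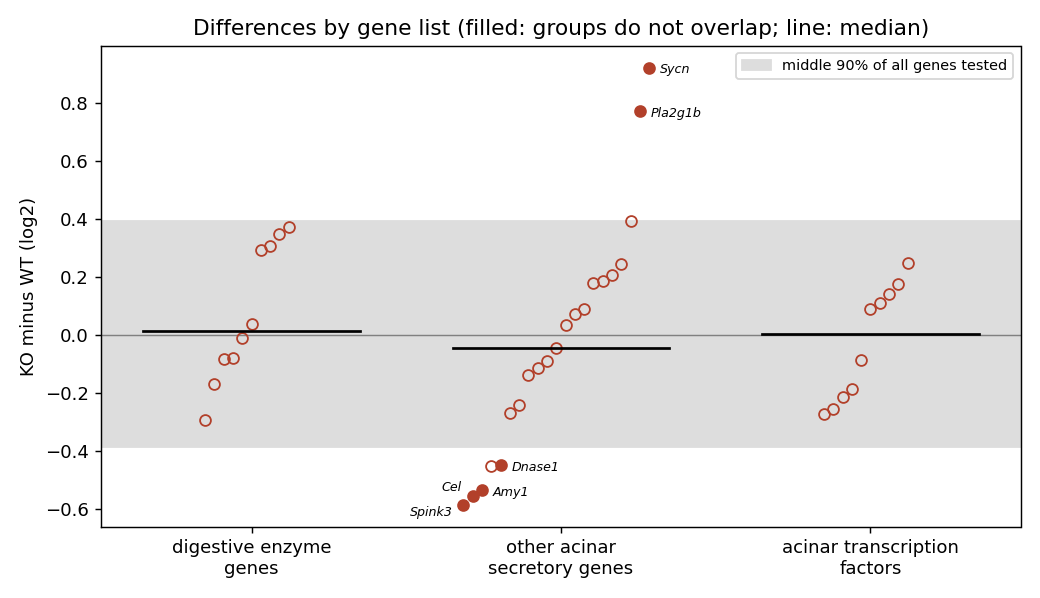
Difference of KO minus WT columns (log2, vertical axis) for the 10 digestive enzyme genes, 21 other acinar secretory genes and 10 acinar transcription factors; filled points are genes whose groups do not overlap, black lines are medians and the grey band holds the middle 90% of all genes tested. The filled points, 2 above and 4 below, all belong to the other secretory genes.

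The scanner files grouped by their titles gave the members as processed intensity. All arrays titled WT were on slide 1 and all titled KO on slide 2, so title and slide cannot be told apart. Ctrb1 had 5721 and 9988 on arrays titled KO 1 and KO 3, against 2106 and 4152 on arrays titled WT 2 and WT 3, its spots on the other arrays being marked as outliers. The titled groups did not overlap on these 4 arrays, and the difference of log2 values was 0.95 (limma, unadjusted p = 0.0396, adjusted p = 0.991). In rank, the arrays titled KO 1, KO 3, WT 2 and WT 3 equal columns WT 2, WT 3, WT 1 and KO 3. They are thus the same measurements regrouped, and the arrays titled KO here equal WT columns. Gp2 had 2911 on the array titled KO 2, against 12840 and 4241 on arrays titled WT 1 and WT 3, a difference of -1.32 with a single KO value. The other 8 genes read between -0.08 (Pnliprp2) and 0.49 (Cpb1), and 0 of the 10 passed.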

How the data were processed

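Expression was measured on 6 single-colour Agilent arrays. Per the file headers, the deposited scanner files hold linear intensity values made with Agilent Feature Extraction 10.7.3.1 (10.6 per the submitters' processing notes), background-subtracted in the processed intensity. The authors' deposited matrix holds 1 log2 value per probe and column, and medians of 7.13 to 7.14 in the 6 columns; its normalization is not given in the sources used here. It also holds the authors' ratio of KO over WT and p-values with an FDR.

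Columns were grouped by their names. Probes entered the fit if at least 3 of the 6 arrays, under any title, had them well above background and not marked as an outlier (32246 probes), and each gene took its kept probe of highest mean. The background level of a column is the 95th percentile of the 5295 probes detected on no array. A model of genotype was fitted to the log2 values with lmFit and eBayes (limma 3.58.1, R 4.3.3), and p-values were adjusted by Benjamini-Hochberg over all 21410 genes or unnamed probes, which was tested on simulated data. Differences are KO minus WT, and precision is limited by the 3 columns per group.

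The members and lists were chosen with earlier results of these data known. All members were named, with Mbd1, Aire and Fezf2, up to 5 genes of smallest p from each list, and the 5 genes of most similar pattern; Ptf1a, Rbpjl and Dnase1 were added after their values were seen, and 1 gene that this rule names is not reported here. Alternatives were other filters, probe rules, column scalings and moderation, the replicate number or slide as a block, each column left out, and the scanner files under their titles. For these the processed intensity was floored at 1, log-transformed and centred on the 75th percentile of each array, or corrected by normexp with an offset of 50. For normexp the median spot signal stood in for the mean signal, which the files read here lack. Marker lists of 10 cell types were described, none with a passing gene: cortical epithelium (median difference 0.29), pancreatic duct (-0.11), pancreatic endocrine (-0.37), B cell (0.04), plasma cell (-0.03), endothelium and mesenchyme (0.11), tuft cell (0.03) and mTEC (-0.04), with T cell and dendritic cell given in the results. All 7 endocrine markers read lower, 2 at an unadjusted p under 0.05 in limma (4.3% of all genes) and 3 without overlap (8.4% of all genes). Coordinates of the arrays' probes are not printed because their build is not given in the sources used here.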

Additional observations from a re-analysis of the deposited data

How the results depend on the processing

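No member passed under any of 18 alternatives (0 of 173 member values, smallest limma adjusted p = 0.658), and 23 of the 173 took the other sign. Moderation, the replicate block, no filter and single probes cannot change a member's difference here by their construction, and the column scalings shift all genes alike. The count of genes passing over the whole array was 36 and moved to 57 with every kept probe on its own, 19 with no filter on dim probes, 62 with the replicate block, and 0 with slide as a block or with the scanner files under their titles, with or without normexp. It was 17 to 56 with a column left out (17 without WT 2, 56 without KO 3). The members' median was 0.01 and read 0.31 with slide as a block, 0.21 under the titles and -0.11 to 0.22 with a column left out. The column numbers do not pair the columns (correlations of deviations for equal numbers -0.28, -0.17 and -0.33), and 0 members passed with the replicate block.

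With slide as a block, Cpb1 read 0.23, Prss2 0.54, Gp2 0.045 and Fezf2 0.17. With marked spots left out, Prss2 read 0.054. Under the titles, values of the other sign were 0.49 (Cpb1), 0.42 (Ctrl), 0.35 (Pnliprp1), -0.078 (Pnliprp2), 1.59 (Mbd1), -0.37 (Pla2g1b), 0.60 (Spink3), 0.34 (Amy1), 0.30 (Cel), 0.29 (Foxa2), 0.16 (Gata4) and 0.19 (Xbp1). With normexp they were 0.19 (Cpb1), 0.29 (Ctrl), 0.22 (Pnliprp1), -0.10 (Pnliprp2), 0.86 (Mbd1), 0.30 (Amy1), 0.18 (Cel), 0.069 (Foxa2), 0.030 (Gata4) and 0.17 (Xbp1). With a column left out, the sign turned for Cpb1 (-0.12 to 0.13), Clps (-0.034 to 0.14), Ctrb1 (-0.10 to 0.61), Prss2 (-0.41 to 0.21), Gp2 (-0.42 to 0.28) and Fezf2 (-0.36 to 0.20). The cause was not tested. Ctrb1, Prss2 and Gp2 rest on marked spots, and 3 columns per group limit all differences.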
